A study of Mus musculus with 6 samples.

Results

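The Trpm3 locus of mouse chromosome 19 was followed in hearts that lack miR-204, the microRNA encoded inside it. It was defined here as 8 rows of the count table, chosen by symbol from 24404: Trpm3, the Mir204 hairpin and 6 genes near them, Klf9, Smc5, Mamdc2, Ptar1, Abhd17b and Pip5k1b. All 8 rows were found, 7 passed the filter on low counts, and Mir204 did not. The 6 libraries were made from heart RNA, 5 weeks after transaortic constriction (TAC), in which a band around the aorta makes the left ventricle pump against a higher pressure. Wild-type mice gave 3 libraries (WT-TAC) and mice of genotype miR-204-/- gave 3 (KO-TAC). Both groups had the surgery, and no unoperated heart was analysed here. Strain, sex, age, the design of the deleted allele and the number of animals behind a sample are not given in the sources used here. The p-values therefore measure the spread between these samples, which may be partly technical.

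A microRNA is cut from a hairpin in a longer transcript and pairs with messenger RNAs through its seed, bases 2 to 8. miR-204 is usually described as being made from an intron of Trpm3, and so is read together with its host. Trpm3 encodes a calcium-permeable cation channel of the melastatin branch of the TRP (transient receptor potential) family, opened by heat and by the neurosteroid pregnenolone sulfate and best known from sensory neurons. Host and neighbouring genes are compared in such knockouts to see whether their levels differ along with the loss of the hairpin.

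The sequences that define the locus are the mature strands of the hairpin, shown with the seed in capitals and set beside the strand of the related hairpin Mir211, which lies in an intron of Trpm1. They are RefSeq sequences on GRCm38.p6, written 5′ to 3′.
miR-204-5p: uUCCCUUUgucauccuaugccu
miR-204-3p: gCUGGGAAggcaaagggacgu
miR-211-5p: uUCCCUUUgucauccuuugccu
miR-204-5p and miR-211-5p share the seed UCCCUUU and 21 of 22 bases, and they differ by A17U, counted from the 5′ end with the base of miR-204-5p first. miR-204-5p lies at chr19:22750610-22750631 and miR-204-3p at chr19:22750649-22750669, both on the plus strand.

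In GENCODE M21 (GRCm38) the hairpin spans chr19:22750605-22750672 within Trpm3, which runs on the same strand over chr19:22139046-22995410, 856 kb. Of 24 annotated Trpm3 transcripts 18 span the hairpin, and 0 of them have it in an exon. In the longest of those 18, which has 25 exons, it lies between exons 6 and 7, 17.4 kb after the former and 16.0 kb before the latter. After Trpm3 come Klf9 (chr19:23141226-23168134, plus strand, 391 kb from the hairpin), Smc5 (chr19:23206451-23273897, minus, 456 kb), Mamdc2 (chr19:23302609-23448442, minus, 552 kb), Ptar1 (chr19:23687429-23731668, plus, 937 kb) and Pip5k1b (chr19:24294794-24555872, minus, 1544 kb). Abhd17b (chr19:21653185-21685637, plus, 1065 kb) lies on the other side.

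The libraries held 6411538 to 8571737 counts. Levels are given as CPM, counts scaled to a common library total. Summed CPM of 7 cardiomyocyte markers ran from 126775 to 197696, and none of the 7 was at 0 in all libraries. Endothelial marker sums were 1060 to 1188 CPM in WT-TAC and 1312 to 1431 in KO-TAC, and fibroblast sums 1143 to 2155 and 857 to 1760, with 0 of 7 genes called in either list. All 7 endothelial markers had positive log2 fold changes (median 0.25) and all 6 epicardial and mesothelial markers negative ones (median −0.63). Of 7 smooth muscle and pericyte markers 2 were positive and 5 negative (median −0.62). In these lists 0 genes were called, against 0.024% of all tested genes. Marker sums other than the endothelial overlapped between the genotypes. The part of these cells in the results was not tested. One column, that of KO-TAC replicate 3, has a leading number that is not its label's but that of WT-TAC replicate 3. Its library index, found in no other label, gave the assignment, and the members' values without it are given below.

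No library of either genotype had a count for Mir204 (0 in all 6), so this row does not check the labels. For a count of 0 a floor of 3 counts was taken, or 0.344 to 0.472 CPM depending on the library. The upper end of the exact 95% Poisson interval was higher, at 0.423 to 0.580 CPM. Both cover counting error only. These were messenger RNA libraries size-selected by the submitters' protocol, and the zero of this hairpin was common among such rows. Of 1174 microRNA hairpin rows 314 (26.7%) had a count in any library. Among the 564 hairpins annotated in an intron of a gene on the same strand, 178 (31.6%) had a count and 40 had at least 10 over all libraries. The rows with the most counts were Mir6236 (10080, between annotated genes), Mir6516 (2586, in an exon of Snhg20) and Mir568 (567, in an exon of Zbtb20). Mir211 and its host Trpm1 both had 0 counts in all 6 libraries, so the related hairpin gave no reading either. Mir1192, in an intron of Klf9, had 14 of its 19 counts in WT-TAC replicate 2 and is named here after its values were seen.

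Trpm3, the host, was measured at a low level that differed little between the genotypes. It had 9.91, 7.35 and 6.03 CPM in WT-TAC replicates 1, 2 and 3 (63, 64 and 44 counts) and 8.33, 9.48 and 5.76 CPM in the KO-TAC replicates (57, 78 and 39 counts). The highest library was wild type and the lowest was a knockout, and the ranges overlapped over most of their length. The WT-TAC mean was 7.76 ± 1.97 CPM and the KO-TAC mean 7.86 ± 1.90 (SD, n = 3). KO-TAC over WT-TAC came to 1.02 (95% interval 0.583 to 1.77), with an adjusted p = 0.999 (edgeR quasi-likelihood, Benjamini-Hochberg). Folds of the host within that interval remain compatible with these libraries. The interval is not a limit of detection, and a larger change could also go uncalled. Within each genotype Trpm3 varied by 25.4% (WT-TAC) and 24.2% (KO-TAC) of its mean, against 13.2% and 13.1% from counting alone.

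Leaving out each library in turn, Trpm3 had a log2 fold change that ran from −0.14 (without KO-TAC replicate 2) to 0.23 (without WT-TAC replicate 1), and it was 0.20 without KO-TAC replicate 3. Fibroblast marker sums were 2155, 1264 and 1143 CPM in the WT-TAC replicates and 1760, 1296 and 857 in KO-TAC. They were highest and lowest in the same libraries as Trpm3, and their part in its spread was not tested. In a bulk tissue sample, fewer cells of a type and less RNA per cell cannot be told apart. Exons of 2 antisense non-coding genes share 277 (Gm27151) and 351 bases (C330002G04Rik) with Trpm3 exons. The use of strand in counting is not given, so reads there cannot be assigned to one gene.

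**Figure D1:**
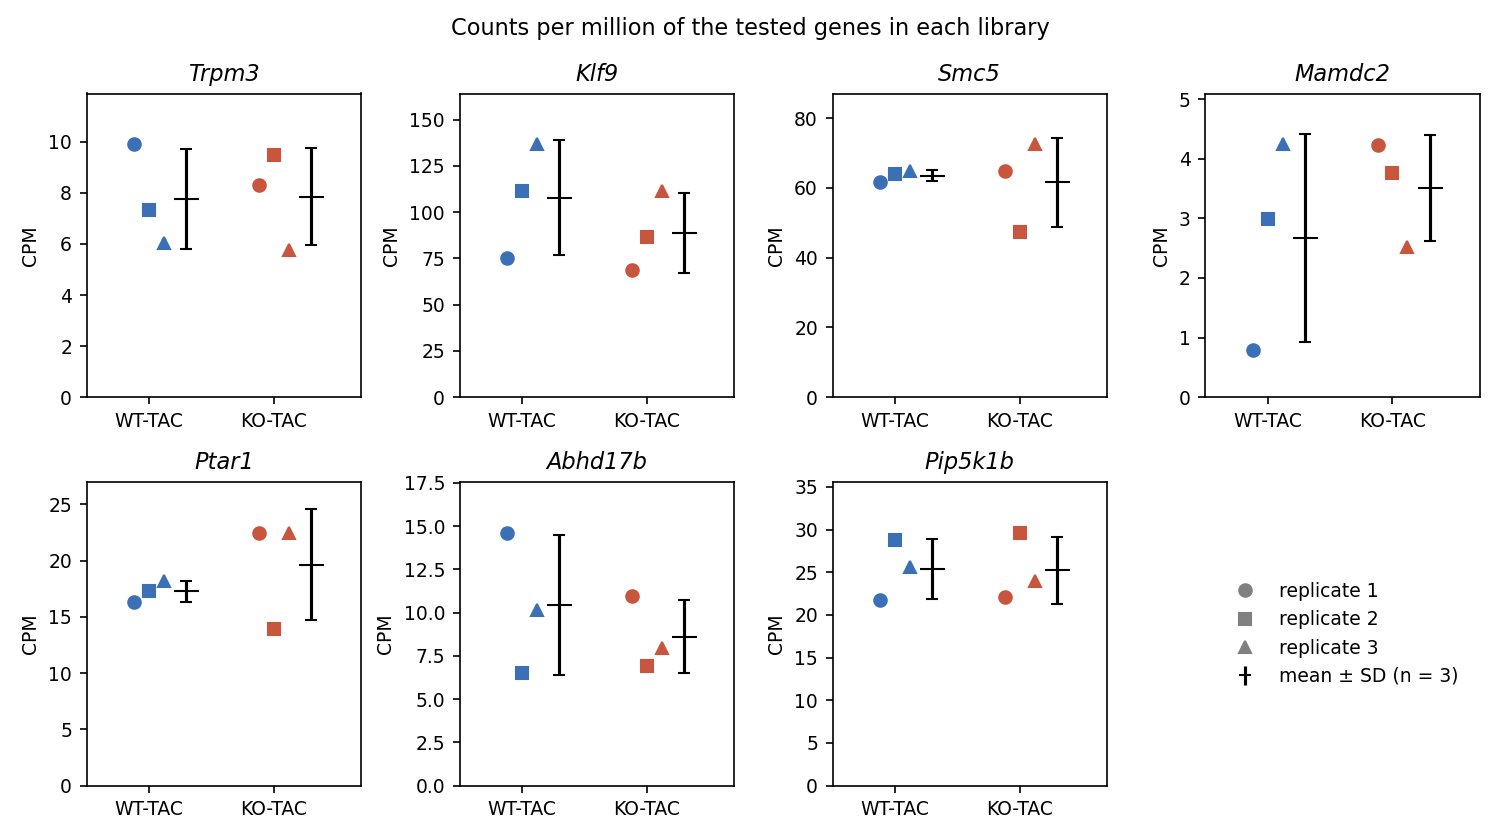
CPM on TMM-scaled library sizes (y axis, from 0) of the 7 tested genes in each of 3 WT-TAC and 3 KO-TAC libraries, with the mean ± SD beside each group. The genotypes overlap in every panel. Mamdc2 in WT-TAC replicate 1, at 0.786 CPM against a group mean of 2.67, is the lowest point as a share of its group's mean.

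Klf9, a zinc-finger transcription factor induced by glucocorticoids, had the highest level of the locus. It stood at 75.0, 112 and 137 CPM in the WT-TAC replicates and 68.5, 86.5 and 111 in KO-TAC. The lowest library of each genotype was its replicate 1 and the highest its replicate 3, and the genotypes overlapped. The fold was 0.823 with a 95% interval of 0.573 to 1.18 (adjusted p = 0.999 in edgeR). Its log2 fold change stayed below 0 in all 15 alternatives tried, from −0.49 without WT-TAC replicate 1 to −0.07 without WT-TAC replicate 3, with 0 of 15 calling it. Klf9 varied between all libraries by 26.5% of its mean, against 3.70% from counting.

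Smc5, a core subunit of the SMC5-SMC6 complex that guards genome stability, had 61.7, 64.0 and 64.9 CPM in WT-TAC and 64.7, 47.4 and 72.6 in KO-TAC. The wild-type values had an SD of 2.65% of their mean, less than the 4.59% of counting error, and lay inside the knockout range. Its fold was 0.968 (95% interval 0.720 to 1.30), the narrowest interval of the locus. KO-TAC replicate 2 was the low library, and without it the log2 fold change was 0.11 in place of −0.05. Ptar1, an alpha subunit that pairs with Rabggtb in a geranylgeranyl transferase, had 16.4, 17.3 and 18.2 CPM in WT-TAC and 22.5, 14.0 and 22.5 in KO-TAC. The same knockout library was the lowest of the 6, and the other knockout libraries were the highest. The fold of Ptar1 was 1.13 (0.758 to 1.69, adjusted p = 0.999 in edgeR).

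Mamdc2, a secreted extracellular matrix protein with MAM domains, was the scarcest of the tested genes by counts. It had 5, 26 and 31 counts in WT-TAC (0.786, 2.98 and 4.25 CPM) and 29, 31 and 17 in KO-TAC (4.24, 3.77 and 2.51 CPM). WT-TAC replicate 1 stood apart, and its counting interval of 0.255 to 1.83 CPM lay below those of the other libraries except KO-TAC replicate 3, whose interval began at 1.46 CPM. The log2 fold change was 0.38 ± 0.66 (SE), or 1.30-fold (95% interval 0.489 to 3.47), and −0.05 without that library. Summed CPM of 5 adipocyte markers (3 tested, 0 called, 0 absent from all libraries) were 0.315, 1.15 and 45.5 in WT-TAC and 32.1, 8.26 and 3.55 in KO-TAC. WT-TAC replicate 1, with the least Mamdc2, was also the lowest of these sums, although its 0.315 CPM lay under that library's floor of 0.472. WT-TAC replicate 3 and KO-TAC replicate 1, nearly level in Mamdc2, were the highest. The order did not hold throughout, as WT-TAC replicate 2 had a lower sum than KO-TAC replicate 3 but more Mamdc2. Summed CPM of Schwann and nerve markers was also lowest in WT-TAC replicate 1, at 5.35, while the sums of the remaining marker lists were lowest elsewhere. The part of these cells in the spread of Mamdc2 was not tested.

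Abhd17b, a serine hydrolase that removes palmitate from proteins, had 14.6, 6.54 and 10.1 CPM in WT-TAC and 10.96, 6.93 and 7.98 in KO-TAC. WT-TAC replicate 1 was the highest library and WT-TAC replicate 2 the lowest, so the knockout values lay inside the wild-type range. Its fold was 0.829 (95% interval 0.474 to 1.45), and without WT-TAC replicate 1 the log2 fold change was 0.04 in place of −0.27. Pip5k1b, a kinase that makes phosphatidylinositol bisphosphate at membranes, had 21.7, 28.8 and 25.6 CPM in WT-TAC and 22.1, 29.6 and 23.9 in KO-TAC. The genotypes covered almost the same range, with a fold of 0.993 (0.701 to 1.41).

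Over the locus, 0 of 7 tested genes were called changed in edgeR, against 0.024% of all 12487 tested genes, and 0 had an unadjusted p under 0.05, against 2.93% (1.36% higher and 1.57% lower in KO-TAC). DESeq2 and limma-voom also called 0 of 7, with 0 at an unadjusted p under 0.05. In 0 of 7 did the genotypes' CPM ranges stay apart, against 7.98% of all tested genes. There were 3 genes with a positive log2 fold change and 4 with a negative one. Their median was −0.01, against 0.001 over all tested genes, and the median absolute value was 0.18 against 0.19. When KO-TAC replicate 3 was left out, these log2 values were 0.20 for Trpm3, −0.48 for Klf9, −0.18 for Smc5, 0.57 for Mamdc2, 0.07 for Ptar1, −0.22 for Abhd17b and 0.03 for Pip5k1b, and 0 of 7 were called. Klf9 and Smc5 then lay farther below 0, Ptar1 nearer to it, and Pip5k1b on its other side.

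**Figure D2:**
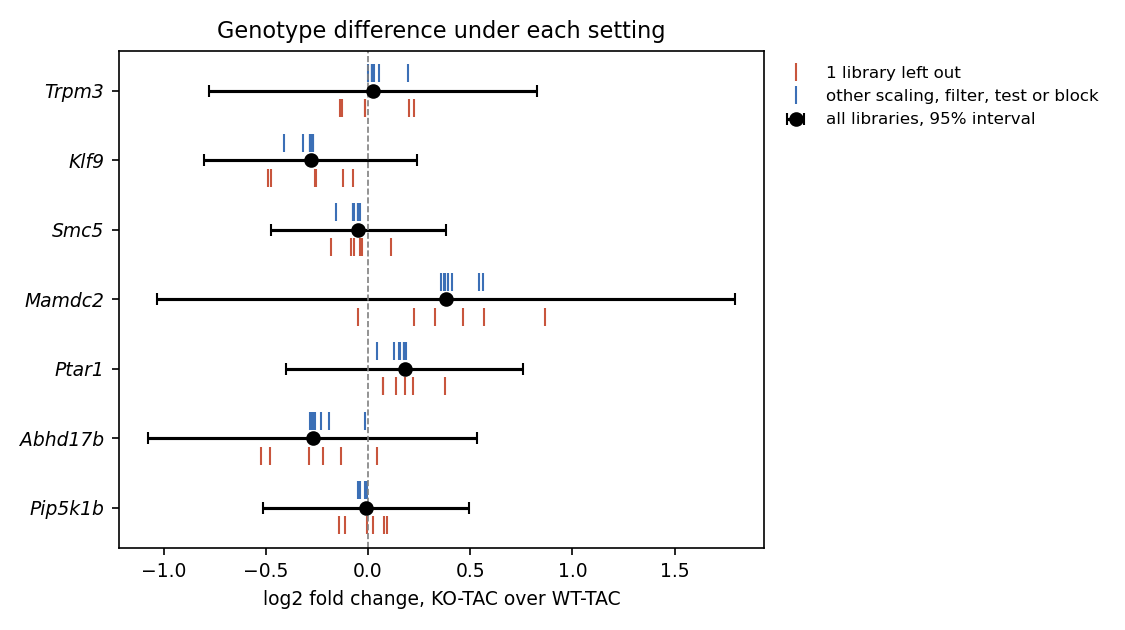
Log2 fold change of KO-TAC over WT-TAC (x axis) for each tested gene. Black points and bars are the edgeR estimate and its 95% interval with all libraries, red ticks the fits with 1 library left out and blue ticks the other settings. Every interval includes 0, Mamdc2 has the widest, and the ticks of Klf9 and Ptar1 stay on 1 side of 0.

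Per length, the order of levels placed the host last among the genes with counts. Mean CPM per kilobase of annotated exon over the 6 libraries was 20.4 for Klf9, 9.21 for Smc5, 6.27 for Pip5k1b, 3.36 for Abhd17b, 1.44 for Ptar1, 0.893 for Mamdc2 and 0.320 for Trpm3. Klf9, at 14.2 to 28.4, did not overlap Smc5, at 6.98 to 10.7, and Pip5k1b, at 5.38 to 7.35, did not overlap Abhd17b, at 2.31 to 5.16. Abhd17b did not overlap Ptar1, at 1.09 to 1.76. Smc5 and Pip5k1b overlapped, as did Ptar1 with Mamdc2 (0.227 to 1.23) and Mamdc2 with Trpm3 (0.236 to 0.406). The order was the same when the longest transcript replaced the union of exons, although this took Trpm3 to 0.635, since its exons add up to 24437 bases and its longest transcript has 12305.

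Among the tested TRP channels the host was one of the scarcer members per length. Counts were looked up for 28 family genes, of which 13 were tested and 4 had no count in any library. The untested genes all had lower means per kilobase than Trpm3, the highest being 0.153 for Mcoln2. Trpm7, a channel fused to a kinase, and Pkd2, the polycystin channel of primary cilia and the endoplasmic reticulum, had the highest levels per length, 9.84 and 9.05 CPM per kilobase. Trpm3 was the 11th of 13, and its range did not overlap that of Trpc1 (0.549 to 1.60), Pkd2l2 (0.419 to 1.77) or the 6 genes above them. It overlapped the ranges of Trpv2, Trpc6, Trpm6 and Trpm2. With its longest transcript as the length, and the others left on the union of exons, Trpm3 ran from 0.468 to 0.805, a range that overlaps those of Trpc1 and Pkd2l2 as well.

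**Figure D3:**
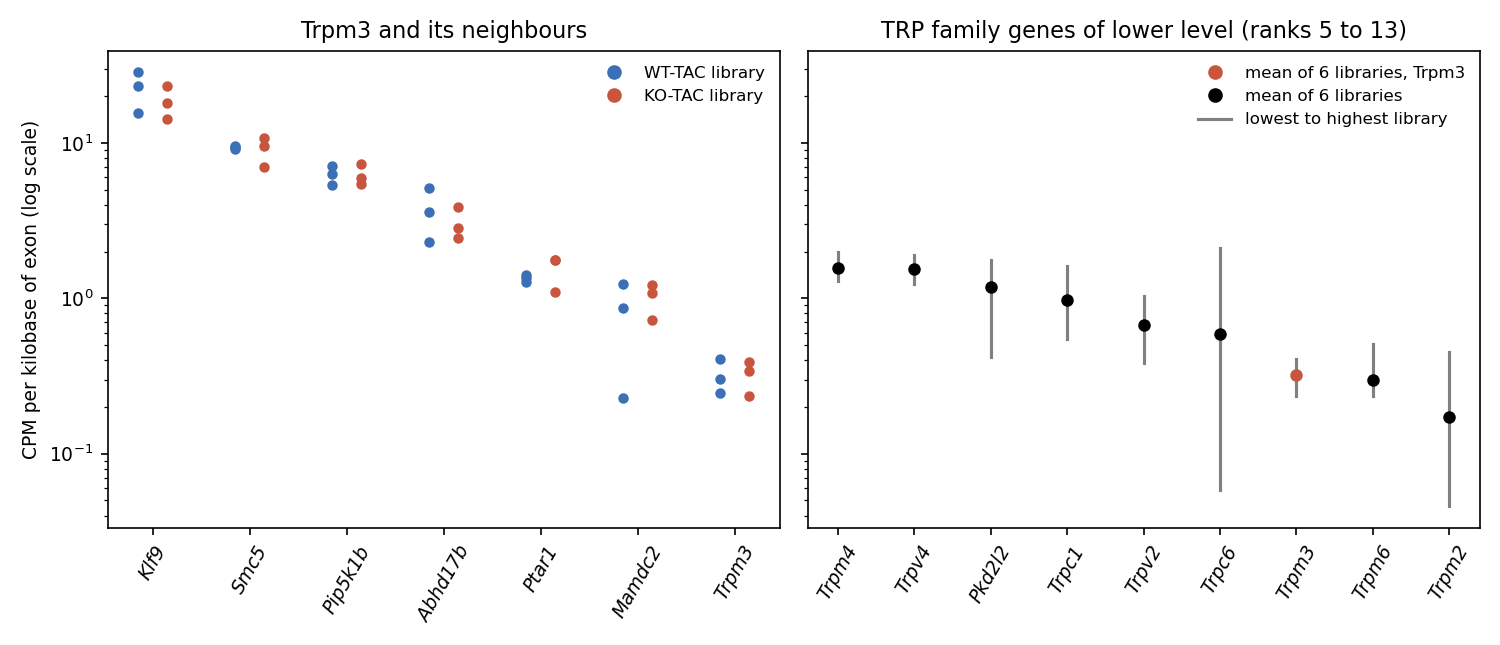
CPM per kilobase of annotated exon on a log axis. Left, each library of the 7 genes of the locus. Right, the mean and the lowest to highest library of the tested TRP family genes ranked 5 to 13 by level. Trpm3, at a mean of 0.320, lies last on the left and ranks 11th of 13 on the right.

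In the TRP family 0 of 13 genes were called in edgeR and 1 (7.69%) had an unadjusted p under 0.05, against 0.024% and 2.93% of all tested genes. There were 6 positive and 7 negative log2 fold changes. Their median of −0.07 had no stable sign, at 0.23 without WT-TAC replicate 1, −0.20 without WT-TAC replicate 2 and 0.05 in limma-voom. DESeq2 called 0 (1 at an unadjusted p under 0.05) and limma-voom 0 (0). Trpc6, a receptor-operated calcium channel, had the smallest p: 10.7, 1.72 and 2.60 CPM in WT-TAC against 1.17, 1.46 and 0.296 in KO-TAC, a log2 fold change of −2.31 ± 0.84 (SE, unadjusted p = 0.0156, adjusted p = 0.999 in edgeR). WT-TAC replicate 1 held 68 counts, against 2 to 19 in the other libraries. The genotypes did not overlap in 4 of 13 channels (30.8%, against 7.98% of all tested genes): Trpc6 and Trpm6, lower in KO-TAC, and Trpv2 and Trpv4, higher in KO-TAC. Each gap was narrow. For Trpc6 the nearest WT-TAC and KO-TAC libraries had 1.72 and 1.46 CPM (15 and 12 counts). For Trpm6 they had 2.05 and 1.92 CPM (15 and 13 counts). Those of Trpv2 had 2.98 and 3.10 CPM (26 and 21 counts), and those of Trpv4 6.08 and 6.65 (53 and 45 counts). Trpv2, a channel of the vanilloid branch, stood at 0.65 ± 0.58 on the log2 scale (adjusted p = 0.999 in edgeR). Trpm6, the kinase-fused magnesium channel that lies 3858 kb from Mir204 on the same chromosome, had −0.52 ± 0.65 on that scale.

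The partners of the neighbours were measured as lists of known function, which were chosen with earlier results of these data known. Of 12 tested Kruppel-like factors 0 were called in edgeR, against 0.024% of all tested genes. They had 3 positive and 9 negative log2 fold changes and a median of −0.14. Klf12, a transcriptional repressor, had the smallest p, at 25.8, 27.5 and 31.9 CPM in WT-TAC and 15.6, 16.8 and 24.4 in KO-TAC. Its genotypes did not overlap, and its log2 fold change was −0.59 ± 0.25 (unadjusted p = 0.0353, adjusted p = 0.999 in edgeR). It was the 1 factor (8.33%, against 2.93% of all tested genes) with an unadjusted p under 0.05, and DESeq2 and limma-voom also called 0 factors with 1 under that limit each. Klf10, a TGF-beta-induced factor, had 0.34 ± 0.30. Of the 16 glucocorticoid-induced genes, which include Klf9, 0 were called in edgeR, against 0.024% of all tested genes. Log2 fold changes were positive in 7 and negative in 9, with a median of −0.14. Per1, a clock gene, had −1.12 ± 0.42, Cdkn1a, a cell cycle inhibitor, 0.96 ± 0.41, and Zbtb16, a zinc-finger repressor, −0.50 ± 0.28 (adjusted p = 0.999 for each in edgeR). Per1 and Cdkn1a had unadjusted p of 0.0288 and 0.0345, so 2 of 16 (12.5%) were under 0.05, against 2.93% of all tested genes. That count was 2 in DESeq2 and in limma-voom, which called 0 of the 16, and ran from 1 to 4 over all settings (4 without KO-TAC replicate 2, 1 without KO-TAC replicate 3). The median was −0.38 without KO-TAC replicate 3. In 0 of the 16, Per1 and Cdkn1a included, did the genotypes' CPM ranges stay apart, against 7.98% of all tested genes.

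Smaller lists showed no called gene in edgeR, DESeq2 or limma-voom, and 0 genes at an unadjusted p under 0.05 in any of these. Over all tested genes the shares in edgeR were 0.024% and 2.93%, so zeros in lists this short are near the background. The 7 tested SMC5-SMC6 complex genes had 2 positive and 5 negative log2 fold changes (median −0.05). Among them Eid3 had −1.17 ± 0.79, Ndnl2 0.29 ± 0.37 and Nsmce2 −0.12 ± 0.24. Eid3 had 49, 25 and 5 counts in WT-TAC and 9, 14 and 13 in KO-TAC, and its genotypes overlapped. The 11 prenylation genes had 5 positive and 6 negative (median −0.095, that of Rabggtb, the partner of Ptar1). Among them Chm, a Rab escort protein, had −0.43 ± 0.28, Rce1, a protease of prenylated proteins, 0.53 ± 0.44, and Icmt, their methyltransferase, −0.23 ± 0.22. The 8 depalmitoylation genes split 4 and 4 (median −0.05), with the lysosomal thioesterase Ppt1 at 0.31 ± 0.19, Lypla1 at −0.27 ± 0.24 and Ppt2 at 0.23 ± 0.25. Of the 11 phosphoinositide kinases 2 were positive and 9 negative (median −0.11), with Pip4k2a at −0.38 ± 0.27, Pi4k2a at −0.31 ± 0.24 and Pip4k2b at −0.16 ± 0.22. With a library left out 1 to 5 of these kinases were positive, the 5 without KO-TAC replicate 3, where the median was −0.04. The kinase median stayed below 0 with each library left out, while the medians of the other 3 lists changed sign. They moved to 0.11 for the SMC5-SMC6 genes without WT-TAC replicate 3 and to 0.015 for prenylation without KO-TAC replicate 2. For depalmitoylation the median was 0.08 without WT-TAC replicate 2.

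Around the locus, the table held 44 other genes within 5 Mb of the hairpin, of which 27 were tested. In edgeR 0 of 27 were called and 0 had an unadjusted p under 0.05, against 0.024% and 2.93% of all tested genes, and DESeq2 and limma-voom gave 0 and 0. There were 16 positive and 11 negative log2 fold changes (59.3% positive, against 50.2% over all tested genes), with a median of 0.04 and a median absolute value of 0.17. Without WT-TAC replicate 2 there were 13 of 28 positive and the median was −0.03, and with no filter it was −0.006. Of these 27 genes 2 (7.41%), D030056L22Rik and Trpm6, had genotypes that did not overlap, near the 7.98% of all tested genes. Within 10 Mb, 0 of 67 tested genes were called in edgeR and 0 had an unadjusted p under 0.05, and 6 (8.96%) did not overlap.

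Tmem2, a cell-surface hyaluronidase, was the one other tested gene within 1 Mb, at 892 kb. Its mean was 68.4 ± 13.1 CPM in wild-type and 59.1 ± 27.0 CPM in knockout hearts (SD, n = 3), and its log2 fold change −0.21 ± 0.30 (SE). The smallest p of the 5 Mb window, members aside, was that of D030056L22Rik, 4032 kb before the hairpin. It had 9.91, 8.84 and 9.72 CPM in WT-TAC and 5.55, 4.98 and 6.65 in KO-TAC, so the genotypes did not overlap. Its log2 fold change was −0.73 ± 0.35 (unadjusted p = 0.0574, adjusted p = 0.999 in edgeR). Next came Ostf1, an adaptor protein first described in osteoclasts, at 0.32 ± 0.22, and 1110059E24Rik at −0.47 ± 0.38. The last starts 208 bases from Abhd17b on the opposite strand. It had 8.81, 8.72 and 7.81 CPM in WT-TAC and 8.47, 5.59 and 4.29 in KO-TAC.

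**Figure D4:**
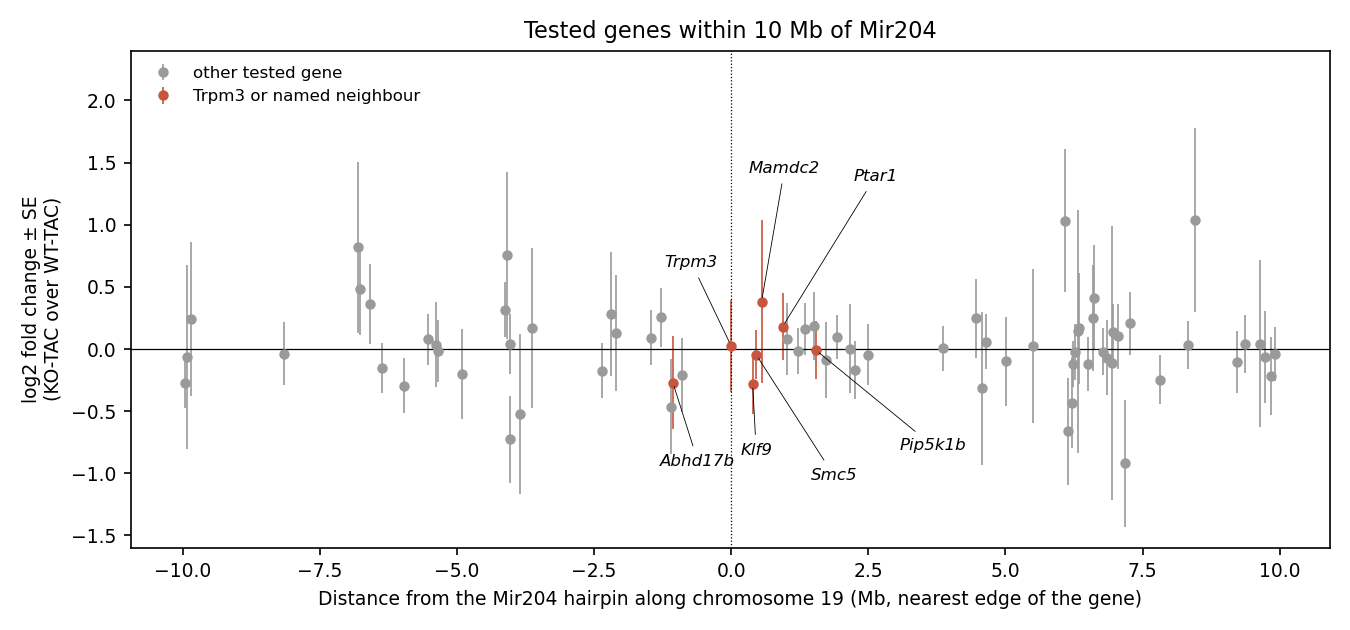
Log2 fold change ± SE (y axis) of every tested gene within 10 Mb of the Mir204 hairpin, against the distance in Mb of the gene's nearest edge (x axis, 0 where the gene spans the hairpin). The 7 genes of the locus are red and labelled, the 67 others grey. With the locus genes left out, the median absolute value is 0.17 within 5 Mb and 0.13 from 5 to 10 Mb, where 40 genes were tested.

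The 5 genes whose levels followed Trpm3 most closely lay on other chromosomes, as most genes do. Over the 6 libraries, the highest Pearson correlations of log2 CPM among 11446 genes were those of Bcl2 (0.996), an inhibitor of apoptosis, Myo1c (0.995), an unconventional myosin, Fhl1 (0.994), a LIM-domain protein of striated muscle, Ppp1r12c (0.993), a myosin phosphatase subunit, and Kdm3b (0.991), a histone demethylase. Spearman's rho was 1 for Bcl2, Myo1c and Ppp1r12c and 0.943 for the others, and 52 genes had a rho of 1, so ranks alone do not single out these. Without the 2 libraries farthest from the median, KO-TAC replicate 3 and WT-TAC replicate 3, r was 0.960 to 0.995. With so few libraries 321 genes (2.80%) reached an r of at least 0.9 and 292 reached −0.9 or lower. Among the tested genes of the locus, r with Trpm3 ran from −0.815 (Klf9) to 0.304 (Abhd17b). These are given as a description of 6 libraries that differ in depth and in marker sums. The part of such differences in the correlations was not tested. Bcl2 had 47.4, 25.5 and 18.8 CPM in WT-TAC and 35.1, 44.8 and 18.2 in KO-TAC, with the same order of libraries as Trpm3.

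Sites for the miR-204 seed were looked for in the members' own messages. The match searched was AAAGGGA, the reverse complement of the seed, on the transcript strand of the longest 3′ UTR annotated per gene. It occurred in Mamdc2 alone of the 7 genes, at bases 894 and 1608 of 2027, shown with 10 bases on each side and the match in capitals.
Mamdc2, first site: gtttatttgaAAAGGGAagaagatagt
Mamdc2, second site: aatgtccgccAAAGGGAtgcagtgttt
Of 11692 tested genes with an annotated 3′ UTR 2112 (18.1%) held the match, and of 2260 with a 3′ UTR of similar length to that of Mamdc2 486 did (21.5%). The longest of these regions, 11268 bases in Ptar1 and 7102 in Trpm3, held no match, although 71.7% and 53.9% of tested genes of like length did. A match is a description of letters, and the log2 fold change of Mamdc2 given above did not pass the test.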

How the data were processed

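The authors deposited 1 table of unnormalized read counts by gene symbol. FastQC, HISAT2 2.1.0, Subread and edgeR, and the builds mm10 and GRCm38, are listed in the submitters' processing notes without their roles. The annotation and strand setting of the counting are not given in the sources used here, nor, per the labels' protocols, which of a plain and a stranded kit a sample had. All 6 columns were used. Genes passed filterByExpr with a minimum count of 10 (12487 of 24404). Counts were scaled by TMM and tested with a robust quasi-likelihood fit in edgeR 4.0.16 (R 4.3.3), KO-TAC against WT-TAC with no covariate, with Benjamini-Hochberg adjustment over all tested genes and a threshold of 0.05. The test was tried on simulated data. Standard errors were derived from the fold change and its F statistic, and 95% intervals use the test's own degrees of freedom. CPM use TMM-scaled library sizes, and log2 CPM a prior count of 2. Counting intervals are exact Poisson intervals and, like the floor of 3 counts, cover counting error only.

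Positions, exon lengths and 3′ UTRs come from GENCODE M21, where 23309 symbols matched directly and 666 through an older symbol. A further 324 were placed by the RefSeq table of GRCm38.p6 and 105 had no single match. The members, lists and tests were chosen with earlier results of these data known. Beside the 8 members, the text names tested genes within 1 Mb of Mir204 and the 3 smallest p within 5 Mb. It also names up to 3 genes of each list by p (1 that the rule names is not reported here), the 5 genes most like Trpm3 among those whose log2 CPM averages 1 or more, Mir211, Trpm1 and the 3 hairpin rows with the most counts. Genes named for context beside these are list partners or channels of the order by level. As alternatives, the fit was repeated with a minimum count of 30 or none, with RLE, upper-quartile or unscaled libraries, in DESeq2 1.42.0, in limma-voom (limma 3.58.1) plain or quality-weighted, with a replicate block, and without each library. Others were windows of 2 and 10 Mb, rank correlation and transcript length.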

Additional observations from a re-analysis of the deposited data

How the results depend on the processing

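No tested gene of the locus was called under any of its alternatives (15 each, and 14 for Mamdc2, which the minimum count of 30 removed), with adjusted p of at least 0.872. Direction held in all 15 for Klf9 and Ptar1, and reversals came only with a library left out. The log2 fold change of Trpm3 then ran from −0.135 to 0.227, of Smc5 from −0.183 to 0.113, of Mamdc2 from −0.047 to 0.864, of Abhd17b from −0.522 to 0.043 and of Pip5k1b from −0.142 to 0.092. The reversed values were −0.015, −0.127, −0.017 and −0.135 for Trpm3 (without WT-TAC replicates 2 and 3 and KO-TAC replicates 1 and 2), 0.113 for Smc5 (without KO-TAC replicate 2), −0.047 for Mamdc2 and 0.043 for Abhd17b (both without WT-TAC replicate 1), and 0.092, 0.079 and 0.026 for Pip5k1b (without WT-TAC replicate 2 and KO-TAC replicates 1 and 3). The cause was not tested. Over all genes 3 were called, 21 with no filter, 16 in DESeq2, 0 in limma-voom (376 at an unadjusted p under 0.05) and 0 to 7 with a library left out (lowest without WT-TAC replicate 1, while KO-TAC replicates 2 and 3 left out gave 7 and 6). Within 5 Mb, members aside, 0 genes were called under every setting, and 1 had an unadjusted p under 0.05 with quality weights, and 0 to 1 with a library left out (1 without KO-TAC replicate 3). Positive log2 fold changes numbered 16 of 27 there, 13 to 15 with a library left out (13 of 28 without WT-TAC replicate 2), and 35 of 67 within 10 Mb. Nothing in the labels says that the replicate numbers pair animals, so they were not taken as pairing. Deviations from the group mean correlated at 0.135, 0.011 and 0.257 between same-numbered samples of the 2 genotypes. Not every sample correlated best with its own number, and these values are not a test of pairing. With the replicate block 6 genes were called, 0 of them in the locus. Counting error alone came to 13.2% of the mean for Trpm3 and 20.8% for Mamdc2, under their spread of 22.2% and 42.9% over all libraries.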

Other observations

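Aldh1a1, an enzyme of retinoic acid synthesis 2107 kb from Mir204, had 33.2, 25.7 and 72.3 CPM in WT-TAC and 73.6, 43.6 and 26.2 in KO-TAC, with a log2 fold change of 0.13 ± 0.46. WT-TAC replicate 3 and KO-TAC replicate 1, its highest libraries, were also the highest in the summed CPM of 6 epicardial and mesothelial markers (31.3, 21.9 and 87.1 in WT-TAC and 53.3, 16.7 and 16.2 in KO-TAC) and of the adipocyte markers. The part of these cells in its level was not tested. Vldlr, a lipoprotein receptor 4466 kb from Mir204, had 339, 501 and 682 CPM in WT-TAC and 435, 466 and 904 in KO-TAC. Its highest library, KO-TAC replicate 3, also held 2267 CPM of Pdk4, a kinase that restrains pyruvate oxidation, against 179 to 414 in the other 5. Pgm5, a phosphoglucomutase relative found at intercalated discs, was among the steadier genes nearby, at 236 to 271 CPM in WT-TAC and 255 to 287 in KO-TAC. These genes were chosen after their values were seen.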
